A study of Mus musculus with 24 samples.

Results

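The hepatic iron handling genes are 10 genes chosen by symbol: the hepcidin genes Hamp and Hamp2, the transferrin receptors Tfrc and Tfr2, transferrin (Trf), the ferritin chains Fth1 and Ftl1, the iron exporter ferroportin (Slc40a1), and the iron sensing genes Hfe and Bmp6. All 10 were among the 41388 genes counted in mouse liver and among the 13052 that passed the limit on low counts. By the test in edgeR, 0 of the 10 passed the adjusted threshold of 0.05 between WT and Adn-Lpin1-/- mice on the low-fat diet, where 14.4% of all tested genes did, and 0 of 10 on the high-fat diet, where 18.6% did. Between the diets it was 0 of 10 in WT (1.1% of all genes) and 0 of 10 in Adn-Lpin1-/- mice (2.46%), and for the change of the genotype effect with diet 0 of 10 (0.0%). At an unadjusted p of 0.05 edgeR gave 4 of 10 on the low-fat diet (Tfr2, Hfe, Bmp6 and Slc40a1), 2 of 10 on the high-fat diet (Trf and Tfr2) and 0 in the other comparisons. Over all 13052 tested genes it gave 3768 on the low-fat diet and 4330 on the high-fat diet. For diet it gave 2059 in WT and 2097 in Adn-Lpin1-/- mice, so these unadjusted counts are read beside a high background. DESeq2 and voom with quality weights each called 2 on the low-fat diet, the same 2 genes Tfr2 and Hfe, and 0 elsewhere. The shares of all tested genes that these methods called are not given here, so these counts have no background beside them. Hamp and Hamp2 instead differed most between mice of the same group. Among the 5 WT mice on the high-fat diet, Hamp ran from 1.12 to 1571 CPM (the count of a gene as a share of the scaled total of its library).

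Hepcidin is a peptide hormone that hepatocytes secrete. It binds ferroportin, the only known cellular iron exporter, and leads to its degradation, so that iron stays in macrophages, enterocytes and hepatocytes and plasma iron falls. Hepatocytes adjust Hamp transcription to iron: BMP6 and BMP2 from sinusoidal endothelial cells act on BMP receptors with the coreceptor hemojuvelin (Hjv), and the receptors activate SMAD1, SMAD5 and SMAD4, while HFE and TFR2 report the iron load of plasma transferrin. Interleukin 6 raises Hamp through STAT3. Ferritin stores iron, transferrin carries it in plasma, and TFRC takes it up. The transcripts of ferritin, ferroportin and TFRC are under a second system, in which iron regulatory proteins 1 and 2 (Aco1 and Ireb2) bind iron-responsive elements in RNA. That system acts largely on translation of ferritin and ferroportin, which RNA counts do not measure, and on the stability of Tfrc RNA.

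The livers came from male WT and Adn-Lpin1-/- mice on a low-fat diet (LFD, 10% of kcal from fat) or a high-fat diet (HFD, 60%). Adn-Lpin1-/- mice carry a floxed Lpin1 gene removed by Cre under the adiponectin promoter, which is active in adipocytes, and the WT mice were floxed littermates. The mice entered the diets at 8 weeks of age and were fasted for 4 hours before tissue was taken. The labels give 16 weeks of diet and the methods of the study 5 weeks. Each group had 5 libraries of single mice and 1 pooled library, so n = 5 mice throughout, and pools were left out of the tests other than 1 alternative.

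Total counts of the 20 single mice ranged from 36260187 to 81072794 (median 56393886). They were 36260187 to 45999456 in WT LFD and 51095146 to 61435897 in Adn-Lpin1-/- LFD. On the HFD they were 54036184 to 62249701 in WT and 57550362 to 81072794 in Adn-Lpin1-/- mice. Every WT LFD library was thus shallower than every library of the other groups, so depth went with group in comparisons with WT LFD. Lpin1 RNA in liver averaged 358 ± 208 CPM in WT LFD and 614 ± 339 CPM in Adn-Lpin1-/- LFD (SD, n = 5), with an adjusted p of 0.314 by edgeR, and since the deletion is in adipocytes the liver level does not check the genotype labels. The 6 hepatocyte markers together took 75838 to 121000 CPM per mouse. Of the adipocyte markers, Lep and Plin1 had at most 5 counts in any mouse.

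The 5′ flank of Hamp and Hamp2 is shown because the 2 genes are near copies and because the flank holds the letters through which SMAD and STAT proteins are known to act on Hamp. Bases 160 to 61 before each start site are given from RefSeq (GRCm38.p6, minus strand), for Hamp at chr7:30944090-30944189 and for Hamp2 at chr7:30924242-30924341. Capitals mark GGCGCC, the core of the BMP-responsive element, or GGCACC at its place in Hamp2, and TTCNNNGAA, the pattern that STAT3 binds.
Hamp: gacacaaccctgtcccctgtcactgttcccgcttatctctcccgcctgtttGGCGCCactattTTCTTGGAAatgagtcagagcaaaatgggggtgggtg
Hamp2: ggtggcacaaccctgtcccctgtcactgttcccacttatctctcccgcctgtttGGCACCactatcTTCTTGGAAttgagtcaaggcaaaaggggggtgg
The 250 bases before the start sites were 89.7% identical. In the 6-letter element Hamp2 carried the change G4A, with positions counted from 1 at the 5′ base of GGCGCC in Hamp. The STAT pattern was the same in both. RefSeq windows of 300 bases (250 before and 50 after the start) were at hand for 8 of the 10 genes. These 8 had 12 windows, so the counts of genes and the shares of windows below are in unlike units. On either strand, GGCGCC was in windows of 2 of the 8 genes (Hamp and Tfrc) and in 11.9% of all 32851 windows, and TTCNNNGAA was in 2 of the 8 (Hamp and Hamp2) and in 8.3% of all windows.

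Iron-responsive elements are shown for the 4 members whose transcripts hold one, since they mark the genes that the iron regulatory proteins can bind. The search asked for CAGTG followed by A, C or T as the loop, 5 paired bases on each side and an unpaired C before the stem, in 1 GENCODE transcript a member. Capitals mark the loop, and each stretch is 29 bases.
Fth1, 5′ UTR, chr19:9982732-9982760, plus strand: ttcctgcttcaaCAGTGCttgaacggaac
Ftl1, 5′ UTR, chr7:45459779-45459807, minus strand: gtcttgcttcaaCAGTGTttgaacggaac
Slc40a1, 5′ UTR, chr1:45925465-45925493, minus strand: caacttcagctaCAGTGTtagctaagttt
Tfrc, 3′ UTR, chr16:32631219-32631247, plus strand: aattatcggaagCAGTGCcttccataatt
Tfrc, 3′ UTR, chr16:32631598-32631626, plus strand: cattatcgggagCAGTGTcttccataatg
Tfrc, 3′ UTR, chr16:32631663-32631691, plus strand: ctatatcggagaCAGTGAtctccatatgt
Tfrc, 3′ UTR, chr16:32631710-32631738, plus strand: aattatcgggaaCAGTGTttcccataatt
Of 21877 protein coding genes, 222 (1.01%) had such a match in any of their protein coding transcripts, a wider search than that of the members. The single match of Fth1, Ftl1 and Slc40a1 lay before the coding sequence and the 4 matches of Tfrc after it.

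Levels per kb of exon differed widely among the 10 genes. Over the 20 mice Hamp averaged 1584 CPM per kb, Fth1 1511 and Ftl1 1493, which ranked 37, 38 and 39 of the 13052 genes. Trf followed at 266, Hamp2 at 231 and Tfr2 at 165 CPM per kb. Slc40a1 (10.8) and Hfe (9.49) were an order lower, and Tfrc (1.84) and Bmp6 (0.817) were the lowest. Within a group, the SD of log2 CPM was 2.48 for Hamp and 1.60 for Hamp2, ranks 2 and 14 of 13052, against a median of 0.190 over all tested genes. Tfrc (0.504) and Bmp6 (0.418) were also above that median, while Tfr2 (0.0973), Fth1 (0.127) and Hfe (0.129) were below it. The hepcidin genes were thus at high counts and far more variable from mouse to mouse than the other 8 genes.

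**Figure D1:**
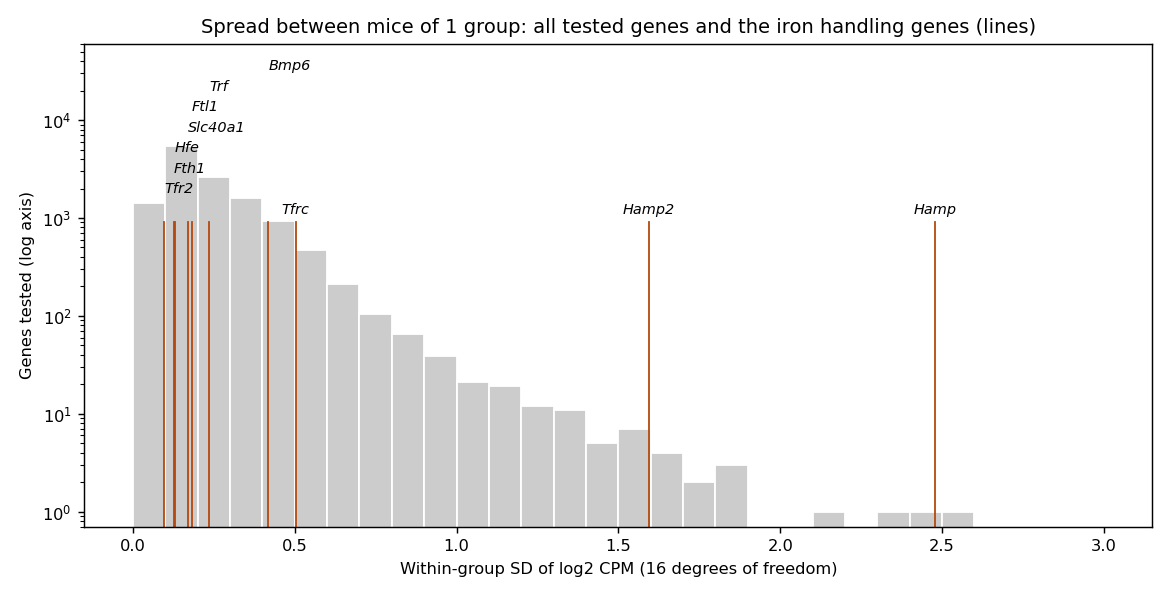
Histogram of the within-group SD of log2 CPM (x axis, log2 units) for the 13052 tested genes (y axis, number of genes, log axis), with a line at the SD of each iron handling gene. Hamp at 2.48 and Hamp2 at 1.60 stand in the far right tail, and 6 of the other 8 genes lie under 0.3.

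Hamp, the main mouse hepcidin gene, lies on chromosome 7 (30942371 to 30944017, minus strand). In WT LFD the 5 mice had 681, 630, 1116, 937 and 556 CPM of Hamp. In Adn-Lpin1-/- LFD they had 232, 418, 1084, 835 and 486 CPM. The groups overlapped, with 2 Adn-Lpin1-/- mice above the WT median and 3 below the lowest WT mouse. In WT HFD the values were 287, 333, 411, 1.12 and 1571 CPM, mouse 4 having 58 counts of Hamp in its library. In Adn-Lpin1-/- HFD they were 20.5, 45.9, 599, 1219 and 954 CPM. On the HFD each genotype thus held a mouse above the highest LFD level, and 1 WT and 2 Adn-Lpin1-/- mice far under the lowest LFD level of 232 CPM. The highest mouse was 2.01 times the lowest in WT LFD, 4.67 times in Adn-Lpin1-/- LFD, 1407 times in WT HFD and 59.4 times in Adn-Lpin1-/- HFD.

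No difference of Hamp between groups was larger than this spread. The fitted log2 fold change was -0.36 ± 0.97 (SE here and for every log2 fold change, adjusted p = 0.847, edgeR) for Adn-Lpin1-/- against WT on the LFD and 0.13 ± 0.97 (adjusted p = 0.943) on the HFD, with 95% intervals of -2.39 to 1.67 and -1.90 to 2.16. For HFD against LFD it was -0.59 ± 0.98 (adjusted p = 0.819) in WT and -0.11 ± 0.97 (adjusted p = 0.971) in Adn-Lpin1-/- mice. These values depended on single mice. Without WT HFD mouse 4 the diet difference in WT was -0.27 and the genotype difference on the HFD -0.20, and without WT HFD mouse 5 they were -1.60 and 1.13. The fit compares group means of counts, and the difference of mean log2 CPM for diet in WT was -2.36 (exact permutation test, two-sided, p = 0.159).

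Hamp2, the second mouse hepcidin gene, lies 18.2 kb from Hamp (chromosome 7, 30922372 to 30924181, minus strand). The Hamp and Hamp2 messenger RNAs were 92.6% identical, with 87 bases as the longest identical run. The study counted only reads with a single alignment, so reads that fit both genes would be left out. The levels of each are uncertain to that extent. In WT LFD the mice had 142, 175, 232, 314 and 131 CPM of Hamp2. In Adn-Lpin1-/- LFD they had 84.0, 35.8, 158, 82.6 and 58.2 CPM. Of these 5 mice, 4 were below every WT LFD mouse. In WT HFD the values were 94.96, 97.0, 108, 2.33 and 87.5 CPM, all below the lowest WT LFD mouse. In Adn-Lpin1-/- HFD they were 3.30, 20.3, 74.3, 84.4 and 32.6 CPM. Mean Hamp2 was therefore highest in WT LFD (199 ± 75.7), intermediate in Adn-Lpin1-/- LFD (83.6 ± 45.9) and WT HFD (78.0 ± 42.9), and lowest in Adn-Lpin1-/- HFD (43.0 ± 35.0 CPM, SD, n = 5), and no step passed the threshold.

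The fitted log2 fold change of Hamp2 was -1.25 ± 0.69 on the LFD (adjusted p = 0.246, edgeR) and -0.86 ± 0.69 on the HFD (adjusted p = 0.407) for genotype. For diet it was -1.35 ± 0.70 in WT (adjusted p = 0.359) and -0.96 ± 0.69 in Adn-Lpin1-/- mice (adjusted p = 0.531). In a fit of only the 2 LFD groups, which did not share the spread of the HFD mice, the genotype difference on the LFD was -1.25 with an adjusted p of 0.0376. Diet in WT was the one comparison of the 10 genes in which single mice of the groups did not overlap (exact permutation p = 0.00794, the smallest p that 5 against 5 mice can give, in 1 of 40 such tests and uncorrected). That is 1 of 10 genes, against 3.73% of all tested genes for diet in WT. For the other comparisons 0 of 10 were separated, against 10.1% (genotype on the LFD), 11.4% (genotype on the HFD) and 4.06% (diet in Adn-Lpin1-/- mice) of all tested genes.

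**Figure D2:**
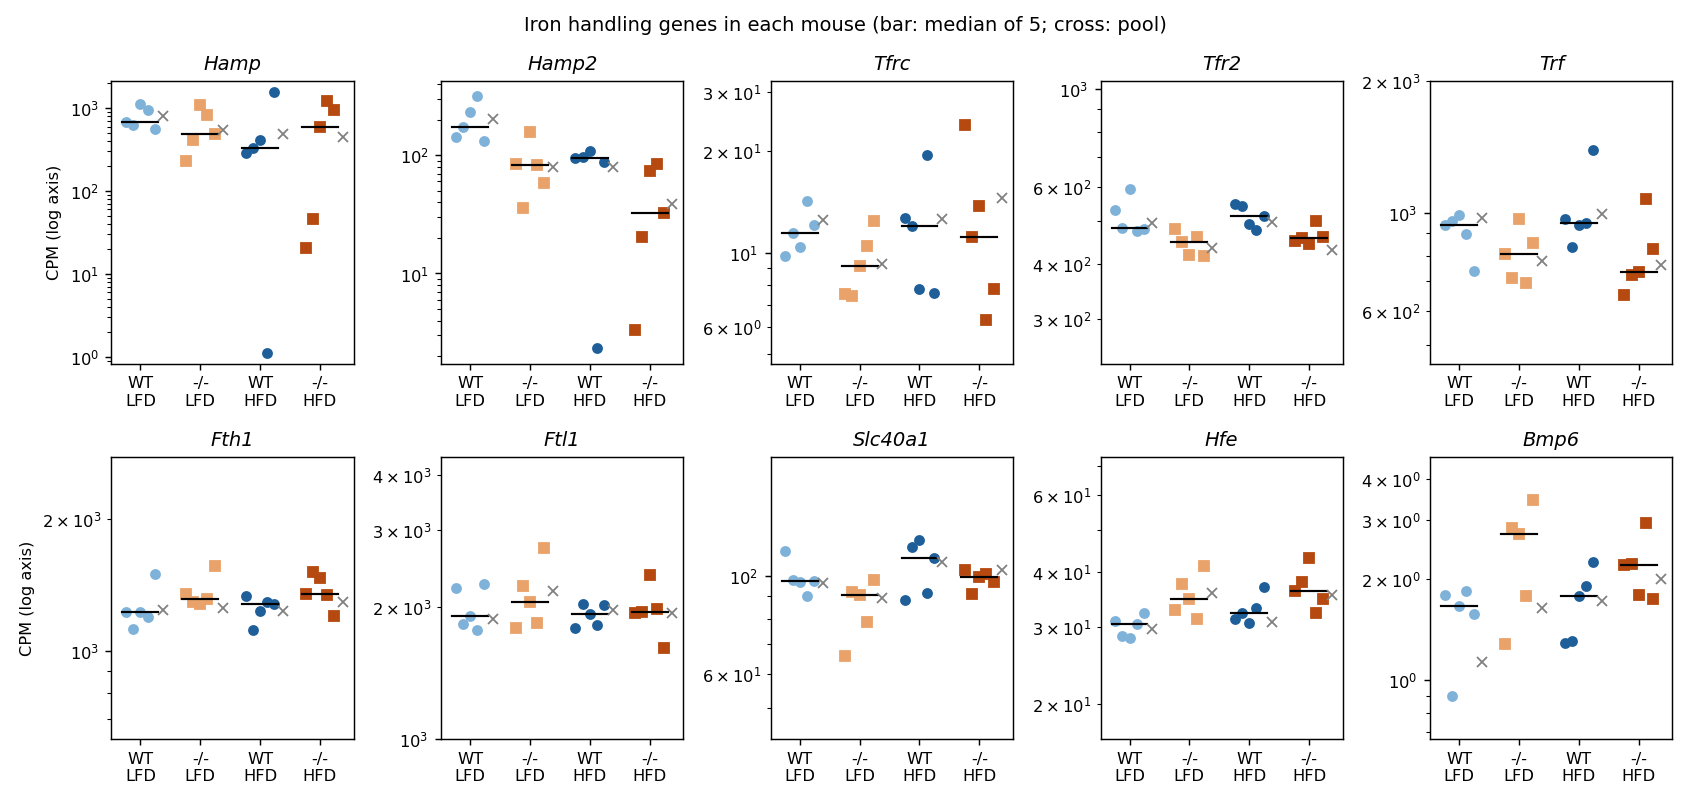
CPM (y axis, log axis) of each iron handling gene in every mouse, by group (x axis), where -/- stands for Adn-Lpin1-/-, with a bar at the median of 5 mice and a cross for the pooled library. The Hamp and Hamp2 panels span orders of magnitude on the HFD, whereas the Tfr2, Fth1, Ftl1 and Hfe panels span less than 2-fold.

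The 3 mice with the lowest Hamp are given one by one, with no test, since they were picked by the measured value. WT HFD mouse 4 (1.12 CPM of Hamp) was the lowest of all 20 mice for Hamp2 (2.33 CPM) and for Id3 (8.70 CPM) and Smad7 (3.54 CPM), which are BMP-SMAD target genes. Its Tfrc (19.4 CPM) was the highest of its group and second of all 20. Adn-Lpin1-/- HFD mouse 1 (20.5 CPM of Hamp) had the next lowest Hamp2 (3.30 CPM) and the highest Tfrc of all mice (23.96 CPM). Its Id1 (2.74 CPM), Id3 (18.2 CPM) and Smad7 (5.92 CPM) were the lowest of its group. Adn-Lpin1-/- HFD mouse 2 (45.9 CPM) had 20.3 CPM of Hamp2, 4.19 of Id1 and 11.2 of Tfrc, the median of its group. Fth1 was 1295, 1350 and 1510 CPM in these mice, within the range of the other mice.

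Other values moved with these mice and their part was not tested. The summed level of 8 erythroid and blood markers was 2149 CPM in WT HFD mouse 4, the highest of its group (589 to 2149), and 2629 and 1904 CPM in Adn-Lpin1-/- HFD mice 1 and 2 against 539 to 645 CPM in the other 3. Adn-Lpin1-/- LFD mouse 1, with the lowest Hamp on the LFD (232 CPM), had 2650 CPM of these markers, but WT LFD mouse 1 had 2556 CPM with 681 CPM of Hamp. Cfd, an adipocyte marker that liver also makes in some states, was at 146, 183 and 68.5 CPM in Adn-Lpin1-/- HFD mice 1 to 3 and at most 35.9 CPM in any other mouse. Of the 5 adipocyte markers 2, Cfd and Lpl, passed the limit on low counts, and the sum of the 5, which includes Cfd, was 16.9 to 202 CPM in Adn-Lpin1-/- HFD, 9.50 to 24.8 in WT HFD, 16.4 to 51.3 in Adn-Lpin1-/- LFD and 12.98 to 23.6 in WT LFD. Over all tested genes, the median r of WT HFD mouse 4 to its group was 0.987, within the range of the 20 mice.

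Relations of Hamp across the 20 mice were computed with 4 genes, with p from 100000 permutations adjusted over the 4 (Benjamini-Hochberg). Each relation was also computed after removing the group means, with permutation within groups, since diet and genotype could carry it. Hamp2 was positively related to Hamp, with a Pearson r of 0.87 (adjusted permutation p = 0.00024) and a Spearman rho of 0.52 (adjusted permutation p = 0.0441). Without the 2 mice farthest from the median of Hamp2, r was 0.54. Within groups r was 0.91 and rho 0.85 (adjusted permutation p = 0.00596 and 0.00308), and r was 0.70 without the 2 farthest mice.

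Id1, a direct BMP-SMAD target that encodes an inhibitor of DNA binding, was related to Hamp with r = 0.62 and rho = 0.83 (adjusted permutation p = 0.00268 and 0.00016), and r was 0.64 without the 2 farthest mice. Within groups rho was 0.59 (adjusted permutation p = 0.0164), whereas r was 0.54 (adjusted permutation p = 0.0725) and 0.37 without 2 mice. The within-group r of Id1 passed without WT HFD mouse 2 (0.61, adjusted permutation p = 0.0213), mouse 3 (0.58, adjusted permutation p = 0.0466) or mouse 4 (0.67, adjusted permutation p = 0.0040), from 1000 permutations each. Id1 was at 2.94, 1.53, 2.04, 1.92 and 7.81 CPM in WT HFD, so the mouse with the highest Hamp there also had the highest Id1, but the mouse with almost no Hamp was not the lowest for Id1. No relation of Hamp with its ligand gene Bmp6 was detected, r being 0.0063 and rho 0.18 (adjusted permutation p = 0.979 and 0.446).

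Tfrc, the receptor for transferrin iron, was inversely related to Hamp, with r = -0.65 and rho = -0.46 (adjusted permutation p = 0.00445 and 0.0574). Across all mice r rested on WT HFD mouse 4 and Adn-Lpin1-/- HFD mouse 1, which were high for Tfrc, and without them it was -0.21. Within groups r was -0.69 (adjusted permutation p = 0.0214) and rho -0.49 (adjusted permutation p = 0.0924). Without the 2 mice farthest from the median of Tfrc after removal of the group means, r was -0.61. These were Adn-Lpin1-/- HFD mice 1 and 4, so WT HFD mouse 4 was still included there. Without WT HFD mouse 4 the within-group r was -0.63 (adjusted p = 0.115, from 1000 permutations as for the next values), without WT HFD mouse 5 -0.66 (adjusted p = 0.0559) and without Adn-Lpin1-/- HFD mouse 1 -0.62 (adjusted p = 0.0839), by permutation. WT HFD mouse 4 and Adn-Lpin1-/- HFD mouse 1 were also the highest of their groups for the erythroid markers, whose part was not tested.

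**Figure D3:**
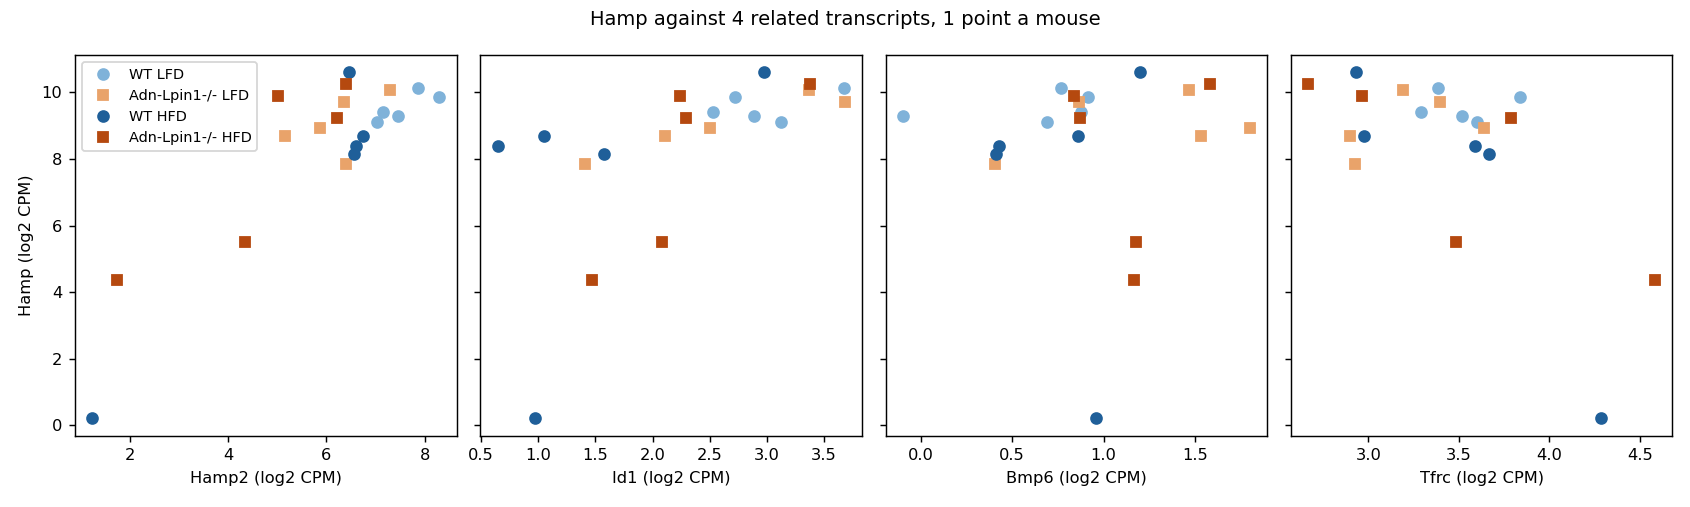
Log2 CPM of Hamp (y axis) against log2 CPM of Hamp2, Id1, Bmp6 and Tfrc (x axes), 1 point a mouse, coloured by group. WT HFD mouse 4 is the lowest point of every panel, and of the 4 genes Hamp2 has the highest Pearson r (0.87) and Id1 the highest rho (0.83).

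The sensors were compared next, by genotype. Bmp6 is the ligand that links liver iron to Hamp (chromosome 13, 38345716 to 38499728). It was low, with 40 to 210 counts per mouse, which limits its precision. In WT LFD it was at 1.80, 0.90, 1.67, 1.85 and 1.58 CPM and in Adn-Lpin1-/- LFD at 1.29, 2.85, 2.73, 1.79 and 3.44 CPM. The groups overlapped, with 3 Adn-Lpin1-/- mice above all WT mice and 1 below 4 of the WT mice. The log2 fold change was 0.64 ± 0.26 on the LFD (adjusted p = 0.0993, edgeR) and 0.35 ± 0.25 on the HFD (adjusted p = 0.347). Without Adn-Lpin1-/- LFD mouse 1 it was 0.79 on the LFD, with an adjusted p of 0.0301, and without Adn-Lpin1-/- LFD mouse 5 it was 0.48, with an adjusted p of 0.259. The genotype effect on Bmp6 was not shown to differ between diets (log2 difference -0.29 ± 0.36, adjusted p = 0.916, edgeR). Endothelial markers were also called higher in Adn-Lpin1-/- mice. Among 8 such markers, 2 were called higher for the LFD and 4 for the HFD. Of all tested genes, 14.4% and 18.6% were called in these comparisons. The median change of the 8 markers was 0.53 log2 units for the LFD and 0.49 for the HFD. The sum of these markers was 96.6 to 172 CPM in WT LFD and 128 to 256 in Adn-Lpin1-/- LFD. Under the HFD it was 120 to 183 CPM in WT and 190 to 212 in Adn-Lpin1-/- mice. The part of endothelial cells was not tested, and in whole liver more cells of a type cannot be told from more RNA per cell. Bmp2, the other endothelial ligand, had a log2 fold change of 0.39 ± 0.24 on the LFD (adjusted p = 0.284, edgeR) and 0.26 ± 0.23 on the HFD (adjusted p = 0.468).

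Hfe, the membrane protein mutated in the common form of hereditary hemochromatosis, lies on chromosome 13 (23702034 to 23710854). Hfe was at 31.0, 28.7, 28.3, 30.6 and 32.3 CPM in WT LFD and at 32.8, 37.5, 34.7, 31.3 and 41.4 CPM in Adn-Lpin1-/- LFD. Of the 5 Adn-Lpin1-/- mice, 4 were above every WT mouse. The log2 fold change was 0.24 ± 0.08, with a 95% interval of 0.06 to 0.41 and an adjusted p of 0.0605 (edgeR), and was 0.16 ± 0.08 (adjusted p = 0.169) on the HFD. Hfe on the LFD was past the threshold with DESeq2 (adjusted p = 0.04997) and with voom with quality weights (adjusted p = 0.0463). It also passed in edgeR without Adn-Lpin1-/- LFD mouse 4 (adjusted p = 0.0352) or Adn-Lpin1-/- HFD mouse 3 (adjusted p = 0.0433), and without Adn-Lpin1-/- LFD mouse 5 it was 0.18 (adjusted p = 0.175).

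Tfr2, the hepatocyte sensor of transferrin saturation, lies on chromosome 5 (137569851 to 137587481). It was at 531, 483, 592, 475 and 480 CPM in WT LFD and at 480, 448, 419, 460 and 417 CPM in Adn-Lpin1-/- LFD. On the HFD it was at 547, 541, 492, 478 and 514 CPM in WT and at 451, 459, 444, 502 and 461 CPM in Adn-Lpin1-/- mice. The groups overlapped by 1 Adn-Lpin1-/- mouse on each diet, which exceeded 1 WT mouse (LFD) or 2 (HFD). The log2 fold change was -0.20 ± 0.07 on the LFD (95% interval -0.35 to -0.06, adjusted p = 0.0519, edgeR) and -0.15 ± 0.07 on the HFD (adjusted p = 0.132). With DESeq2 the LFD value was -0.20 (adjusted p = 0.0252) and with voom -0.21 (adjusted p = 0.0320). With the trend of fold change on GC content removed it was -0.29 on the LFD (adjusted p = 0.00779, edgeR) and -0.27 on the HFD (adjusted p = 0.0104). Without WT LFD mouse 4, WT LFD mouse 5, Adn-Lpin1-/- LFD mouse 1 or Adn-Lpin1-/- HFD mouse 4, the LFD value of Tfr2 also passed (adjusted p = 0.0450, 0.0391, 0.0317 and 0.0441), whereas without WT LFD mouse 3 it was -0.15 (adjusted p = 0.155). The hepatocyte markers, which summed to 104409 to 113364 CPM in WT LFD and 75838 to 99683 CPM in Adn-Lpin1-/- LFD without overlap, moved the same way, and their part was not tested. Tfr2 and Hfe were the members nearest the threshold, in opposite directions.

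Trf, transferrin, lies on chromosome 9 (103204001 to 103230444), and its exons overlap those of Gm20425 on the same strand, so its counts are uncertain to that extent. On the HFD it was at 969, 839, 938, 951 and 1394 CPM in WT and at 652, 723, 734, 1079 and 830 CPM in Adn-Lpin1-/- mice. Of the 5 Adn-Lpin1-/- HFD mice, 4 were below every WT HFD mouse, and mouse 4 exceeded 4 WT mice. The log2 fold change was -0.34 ± 0.14 on the HFD (adjusted p = 0.0988, edgeR) and -0.16 ± 0.14 on the LFD (adjusted p = 0.480). Without Adn-Lpin1-/- HFD mouse 4 it was -0.48 (adjusted p = 0.0165), and without WT HFD mouse 5 -0.21 (adjusted p = 0.280). The hepatocyte markers moved the same way, 4 of 6 being called lower on the HFD and 1 of 6 on the LFD in Adn-Lpin1-/- mice. Of all tested genes 18.6% and 14.4% were called there, and the part of the hepatocyte markers was not tested. Their sum was 94862 to 121000 CPM in WT HFD and 79018 to 104163 CPM in Adn-Lpin1-/- HFD, and the highest Adn-Lpin1-/- HFD mouse for these markers was also mouse 4.

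Tfrc, the receptor through which cells take up transferrin, lies on chromosome 16 (32608920 to 32632794). It was at 9.75, 11.4, 10.4, 14.3 and 12.1 CPM in WT LFD and at 7.56, 7.42, 9.10, 10.5 and 12.4 CPM in Adn-Lpin1-/- LFD. On the HFD it was at 12.7, 12.0, 7.82, 19.4 and 7.601 CPM in WT and at 23.96, 11.2, 13.8, 6.32 and 7.78 CPM in Adn-Lpin1-/- mice. The HFD groups overlapped over nearly their whole range. Its genotype log2 fold change was -0.30 ± 0.30 on the LFD (adjusted p = 0.534, edgeR) and 0.08 ± 0.29 on the HFD (adjusted p = 0.870). For diet it was 0.04 ± 0.30 in WT (adjusted p = 0.967) and 0.42 ± 0.29 in Adn-Lpin1-/- mice (adjusted p = 0.515), and without Adn-Lpin1-/- HFD mouse 1 the latter was 0.05.

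Ferritin RNA varied little. Fth1 is the heavy chain, which oxidises iron as it enters the shell (chromosome 19, 9982703 to 9985092). Its level over all 20 mice ran from 1116 to 1559 CPM, a 1.397-fold range. Its genotype log2 fold change was 0.12 ± 0.08 on the LFD (adjusted p = 0.379, edgeR) and 0.13 ± 0.08 on the HFD (adjusted p = 0.283), with 95% intervals of -0.06 to 0.29 and -0.04 to 0.31. Ftl1 is the light chain, which aids mineral formation (chromosome 7, 45457944 to 45459884, overlapping Gm22133). It ran from 1609 to 2725 CPM, a 1.69-fold range, with log2 fold changes of 0.09 ± 0.11 on the LFD (adjusted p = 0.622, edgeR) and 0.04 ± 0.11 on the HFD (adjusted p = 0.837). For diet, the intervals were -0.18 to 0.18 in WT and -0.16 to 0.19 in Adn-Lpin1-/- mice for Fth1, and -0.29 to 0.18 and -0.35 to 0.12 for Ftl1. Ferritin protein was not measured here.

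Slc40a1, ferroportin, is most abundant in macrophages of the liver (chromosome 1, 45908068 to 45926523). It was at 114, 98.0, 97.1, 89.9 and 97.3 CPM in WT LFD and at 65.9, 91.9, 90.6, 78.6 and 98.3 CPM in Adn-Lpin1-/- LFD. The groups overlapped through 3 Adn-Lpin1-/- mice that were above the lowest WT mouse. Its genotype log2 fold change was -0.22 ± 0.10 on the LFD (adjusted p = 0.151, edgeR) and -0.10 ± 0.10 on the HFD (adjusted p = 0.525), and without Adn-Lpin1-/- LFD mouse 1 the LFD value was -0.15. For diet it was 0.09 ± 0.10 in WT (adjusted p = 0.728) and 0.21 ± 0.10 in Adn-Lpin1-/- mice (adjusted p = 0.314). Of the 8 Kupffer cell and macrophage markers, 6 were called higher in Adn-Lpin1-/- mice on the HFD and 0 on the LFD. Of all tested genes, 18.6% and 14.4% were called in these comparisons. Their sum was 142 to 180 CPM in WT HFD and 186 to 430 CPM in Adn-Lpin1-/- HFD, beside a Slc40a1 difference with a 95% interval of -0.31 to 0.11 there, and the part of the cell mixture was not tested.

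For diet, the sensors and transferrin did not pass the threshold either. In WT, HFD against LFD gave log2 fold changes of 0.17 ± 0.14 for Trf (adjusted p = 0.605, edgeR), 0.13 ± 0.08 for Hfe (adjusted p = 0.488), 0.14 ± 0.26 for Bmp6 (adjusted p = 0.843) and 0.0050 ± 0.07 for Tfr2 (adjusted p = 0.982). In Adn-Lpin1-/- mice they were -0.0093 ± 0.14 for Trf (adjusted p = 0.982), 0.05 ± 0.08 for Hfe (adjusted p = 0.795), -0.15 ± 0.25 for Bmp6 (adjusted p = 0.810) and 0.06 ± 0.07 for Tfr2 (adjusted p = 0.730). For the change of the genotype effect with diet, the values of the 10 genes ran from -0.29 ± 0.36 for Bmp6 (adjusted p = 0.916) to 0.48 ± 1.38 for Hamp (adjusted p = 0.970).

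**Figure D4:**
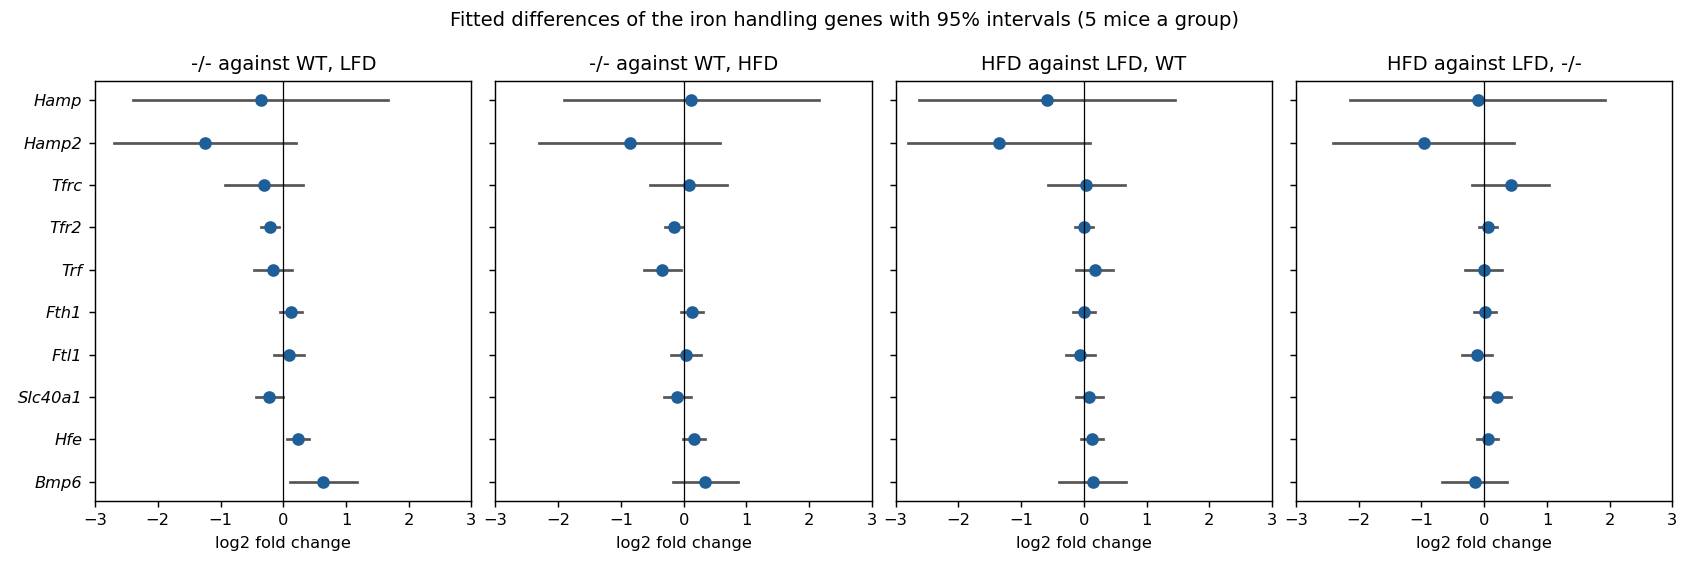
Log2 fold change (x axis) of each iron handling gene for the 4 comparisons, with 95% intervals from edgeR. The intervals of Hamp and Hamp2 span several log2 units, and those of Tfr2 and Hfe on the LFD exclude 0 without passing the adjusted threshold.

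The 10 genes together had a median log2 fold change of -0.18 (LFD) and 0.06 (HFD), against 0.0065 and 0.0023 over all tested genes. With the pools as sixth libraries, voom called the same 3 genes under both diets (Tfr2, Hfe and Trf), and since the pools hold RNA of the same mice this fit counts mice more than once.

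Other genes of iron metabolism were taken from 9 pathway lists with 113 genes, of which 105 were tested. For genotype 11 of the 105 were called on the LFD, 3 higher and 8 lower, or 10.5%. On the HFD 20 were called, 6 higher and 14 lower, or 19.05%. Over all tested genes the shares were 14.4% and 18.6%. Stellate cell markers were higher in Adn-Lpin1-/- mice for 5 of 8 genes on the LFD, with 4 of 8 higher under the HFD, at summed levels of 90.0 to 177 CPM in WT LFD, 191 to 459 in Adn-Lpin1-/- LFD, 156 to 235 in WT HFD and 191 to 473 in Adn-Lpin1-/- HFD, and their part in the pathway values was not tested. For diet 2 of the 105 were called in WT (1.90%, against 1.1% of all tested genes). In Adn-Lpin1-/- mice 4 were called (3.81%, against 2.46% of all tested genes). These few calls were all higher on the HFD.

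The BMP-SMAD sensing list held the largest share of called genes on the LFD, 7 of 19, with 6 of 19 on the HFD. These were 36.8% and 31.6%, against 14.4% and 18.6% of all tested genes. The type II receptors Acvr2a and Bmpr2 and the type I receptor Bmpr1a, which with BMP ligands activate the SMADs, were lower in Adn-Lpin1-/- mice on both diets, and the type II receptor Acvr2b on the LFD. Acvr2a was at 17.7 to 19.6 CPM in WT LFD and 11.9 to 15.0 in Adn-Lpin1-/- LFD, and at 16.9 to 21.3 in WT HFD and 10.5 to 14.4 in Adn-Lpin1-/- HFD. Its groups did not overlap on either diet, and it fell by 0.52 ± 0.09 (adjusted p = 0.00085, edgeR) and by 0.57 ± 0.09 (adjusted p = 0.00033) on the log2 scale. Bmpr2 fell by 0.42 ± 0.09 (adjusted p = 0.00543) and 0.53 ± 0.09 (adjusted p = 0.0009). Bmpr1a fell by 0.30 ± 0.08 and 0.27 ± 0.08 (adjusted p = 0.0122 and 0.0185), and these calls were lost with the GC trend removed, that on the HFD also without WT HFD mouse 2. Acvr2b fell by 0.88 ± 0.24 on the LFD (adjusted p = 0.0180), and without Adn-Lpin1-/- LFD mouse 2 the adjusted p was 0.0531. Fkbp1a, whose product FKBP12 holds type I BMP receptors inactive, was 1.31-fold higher on the LFD (adjusted p = 0.00176, edgeR) and 1.202-fold higher on the HFD (adjusted p = 0.0174). The HFD call of Fkbp1a was lost under 3 of 30 alternatives (no limit on low counts, GC trend removed, and without WT HFD mouse 3 with an adjusted p of 0.0554). Smad4, the common mediator, fell on the HFD by 0.26 ± 0.07 (adjusted p = 0.0141). Smad5 fell on the LFD by 0.23 ± 0.06 (adjusted p = 0.0180) and was higher on the HFD than on the LFD in Adn-Lpin1-/- mice, by 0.32 ± 0.06 on the log2 scale (adjusted p = 0.00691), and in WT, by 0.27 ± 0.06 (adjusted p = 0.0354), the WT call being lost under 10 of 30 alternatives. The genotype call of Smad5 on the LFD was lost under 3 of 30 (no limit on low counts, GC trend removed, and without WT LFD mouse 3 with an adjusted p of 0.0575). Bmp4 rose on the LFD by 0.49 ± 0.15 (adjusted p = 0.0374), a call lost under 13 of 30 alternatives, 7 of them the omission of 1 mouse. Fgl1, a hepatocyte protein that binds BMP ligands, fell on the HFD by 1.02 ± 0.23 (adjusted p = 0.00513). Hjv and Tmprss6, the coreceptor and the protease that cleaves it, had log2 fold changes of -0.04 ± 0.10 and -0.12 ± 0.06 on the LFD (adjusted p = 0.820 and 0.173) and of -0.06 ± 0.10 and -0.06 ± 0.06 on the HFD (adjusted p = 0.711 and 0.473). With the GC trend removed Tmprss6 was lower on both diets (-0.20 and -0.19, adjusted p = 0.0248 and 0.0343).

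Of the 7 tested BMP-SMAD target genes, edgeR called 0 on the LFD. There 0 had an unadjusted p under 0.05, against 3768 of all 13052 tested genes. It called 1, Smad6, under the HFD, where 18.6% of all tested genes were called. Smad6, an inhibitory SMAD, was 1.37-fold higher in Adn-Lpin1-/- HFD (log2 fold change 0.46 ± 0.14, adjusted p = 0.0297), a call lost under 10 of 30 alternatives, among them the removal of the GC trend and the omission of any 1 of 5 mice. On the HFD, Id1 (0.72 ± 0.46), Id3 (0.60 ± 0.29), Smad7 (0.63 ± 0.31) and Atoh8 (0.76 ± 0.35) had positive log2 fold changes with adjusted p of 0.288, 0.155, 0.157 and 0.132. On the LFD their values were -0.20, -0.14, -0.15 and 0.62, with adjusted p of 0.807, 0.796, 0.781 and 0.250. Id2 had -0.19 and -0.26 (adjusted p = 0.703 and 0.551) and Bambi -0.02 and 0.12 (adjusted p = 0.964 and 0.622). For diet in WT, 3 of the 7 had an unadjusted p under 0.05, against 2059 of all 13052 tested genes, and none was called.

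Ireb2, iron regulatory protein 2, had the lowest adjusted p of the pathway genes on both diets. It was at 75.9, 78.9, 83.6, 71.8 and 86.1 CPM in WT LFD and at 59.2, 53.1, 52.4, 54.5 and 53.0 CPM in Adn-Lpin1-/- LFD. On the HFD it was at 78.5, 101, 85.1, 78.6 and 85.6 CPM in WT and at 53.2, 47.9, 48.9, 59.1 and 66.0 CPM in Adn-Lpin1-/- mice. On both diets the highest Adn-Lpin1-/- mouse lay under the lowest WT mouse. Ireb2 fell by 0.54 ± 0.09 on the LFD (adjusted p = 0.00039, edgeR) and by 0.64 ± 0.09 on the HFD (adjusted p = 8.3e-05), and it was called under all 30 alternatives on each diet. Aco1, iron regulatory protein 1, had log2 fold changes of -0.17 ± 0.07 (adjusted p = 0.125) and -0.08 ± 0.07 (adjusted p = 0.475). Cul1, part of the ligase that degrades iron regulatory protein 2, fell on the HFD by 0.22 ± 0.05 (adjusted p = 0.00719). The transcripts with iron-responsive elements shown above, Fth1, Ftl1, Slc40a1 and Tfrc, passed the threshold on neither diet.

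Among 13 genes of uptake and reduction, edgeR called 0 on the LFD, with 2 at an unadjusted p under 0.05, and it called 2 for the HFD (15.4%). Of all 13052 tested genes, 14.4% were called on the LFD, with 3768 at an unadjusted p under 0.05, and 18.6% on the HFD. Steap2, a ferrireductase of endosomes, was 3.22 to 6.29 CPM in Adn-Lpin1-/- HFD against 6.62 to 11.8 CPM in WT HFD and fell by 0.91 ± 0.17 (adjusted p = 0.00197, edgeR). Cd163, the hemoglobin-haptoglobin receptor of macrophages, was 13.4 to 23.8 CPM in Adn-Lpin1-/- HFD against 5.48 to 11.8 CPM in WT HFD and rose by 0.88 ± 0.20 on the log2 scale (adjusted p = 0.0053), beside the macrophage markers given above. On the HFD, WT mice had higher Steap4 than on the LFD, by 0.70 ± 0.12 (adjusted p = 0.0128). Adn-Lpin1-/- mice had higher Cd163 by 0.87 ± 0.20 (adjusted p = 0.0243), Steap3 by 0.46 ± 0.11 (adjusted p = 0.0315) and Lrp1, which takes up heme bound to hemopexin, by 0.30 ± 0.08 (adjusted p = 0.0465), and these 3 calls were lost under 5, 8 and 22 of 30 alternatives. Slc39a14, a transporter of iron not bound to transferrin, had -0.22 ± 0.14 and -0.25 ± 0.14 for genotype (adjusted p = 0.322 and 0.218).

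Hspa9, a mitochondrial chaperone that acts in iron-sulfur cluster assembly, fell on the HFD by 0.22 ± 0.05 (adjusted p = 0.00679, edgeR). Pcbp2, an iron chaperone, fell by 0.19 ± 0.06 and 0.23 ± 0.06 (adjusted p = 0.0280 and 0.0107), which was lost on both diets with the GC trend removed, and on the LFD without any 1 of 4 mice. Cp, ceruloplasmin, had -0.06 ± 0.07 on the LFD (adjusted p = 0.620, edgeR) and -0.20 ± 0.07 on the HFD (adjusted p = 0.0550). Of 13 heme genes, Blvrb, biliverdin reductase B, rose on both diets, by 0.28 ± 0.09 and 0.45 ± 0.09 (adjusted p = 0.0404 and 0.00275), and on the HFD Ppox rose by 0.30 ± 0.08 and Fech fell by 0.17 ± 0.06 (adjusted p = 0.0160 and 0.0353). The LFD call of Blvrb was lost under 12 and that of Fech under 8 of 30 alternatives, and that of Ppox under 2 (GC trend removed, and without WT HFD mouse 4 with an adjusted p of 0.0503). Hmox1, heme oxygenase 1, had 0.38 ± 0.23 on the LFD and 0.57 ± 0.23 on the HFD (adjusted p = 0.289 and 0.0812). Of the 8 tested genes of the inflammatory input, edgeR called 0 on the LFD. There 3 had an unadjusted p under 0.05, against 3768 of all 13052 tested genes. On the HFD edgeR called 2 of the 8, where 18.6% of all tested genes were called. On the HFD Il1b was 2.85-fold higher (adjusted p = 0.0230) at 1.60 ± 1.13 against 0.556 ± 0.250 CPM (SD, n = 5), and Creb3l3, a hepatocyte transcription factor, fell by 0.21 ± 0.07 (adjusted p = 0.0344). The Il1b call was lost without WT HFD mouse 1, WT HFD mouse 3 or Adn-Lpin1-/- HFD mouse 2 (adjusted p from 0.0529 to 0.104) and in the fit of only the 2 groups compared, 4 of 30 alternatives in all, and that of Creb3l3 without any 1 of 6 mice. Hif1a was the 1 of 7 hypoxia regulators called (14.3%, against 18.6% of all tested genes), on the HFD. It fell there by 0.31 ± 0.08 (adjusted p = 0.0160, edgeR), a call lost with the GC trend removed.

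**Figure D5:**
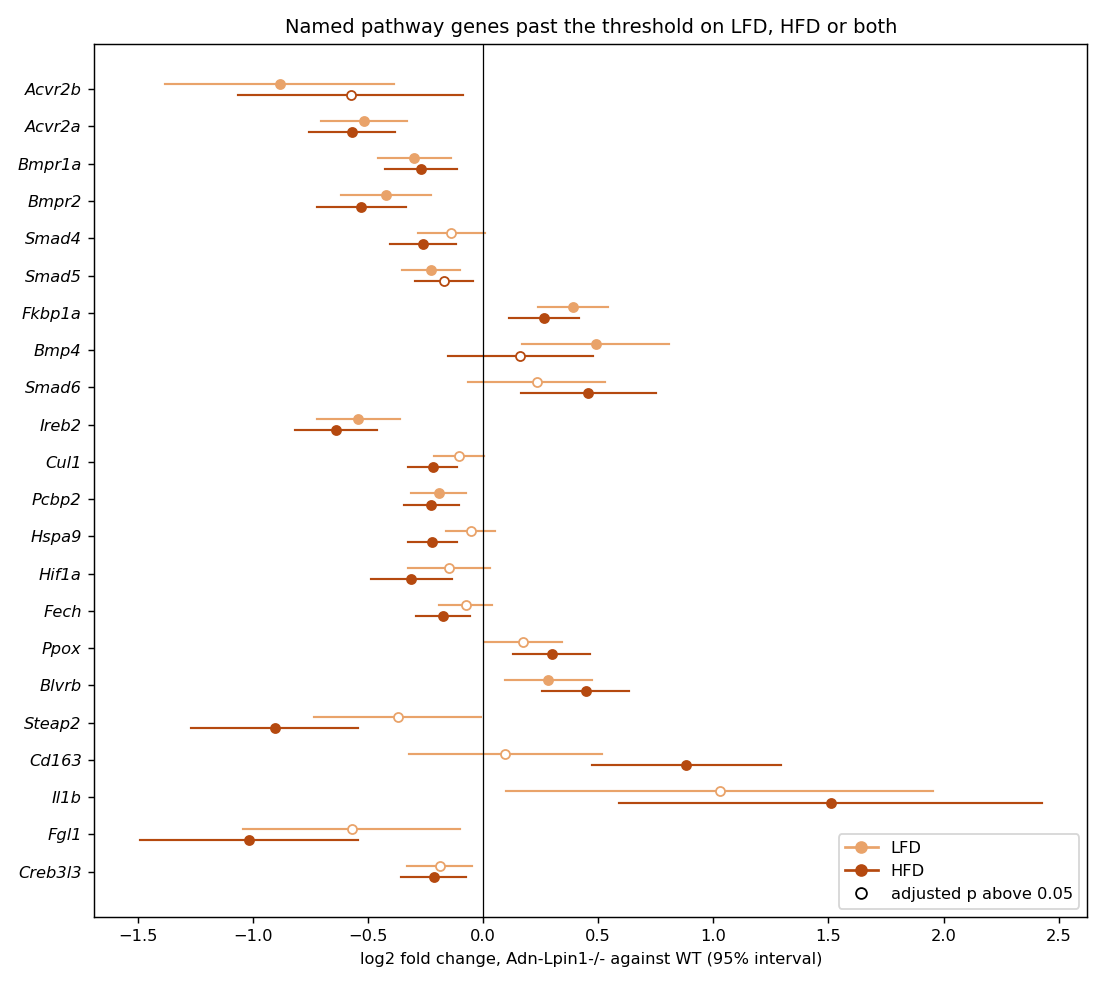
Log2 fold change of Adn-Lpin1-/- against WT (x axis) with 95% intervals for the pathway genes named here that were called on the LFD, the HFD or both. Filled points passed the adjusted threshold in edgeR and open points did not. Ireb2, Acvr2a and Bmpr2 were lower on both diets.

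Genes most like Hamp, Tfrc and Slc40a1 were named by the highest Pearson r of log2 CPM over the 20 mice, as a description. For Hamp these were Gm4673 (r = 0.87), Hamp2 (0.87), Zfp975 (0.78), Arfip2 (0.78) and Ccdc137 (0.78). Of these 5, 4 lie on chromosome 7, which held 7.61% of the tested genes, and Gm4673 starts 13.4 kb from the end of Hamp. Gm4673 was at 3.06 CPM in WT HFD mouse 4, at 3.10 and 5.16 CPM in Adn-Lpin1-/- HFD mice 1 and 2 and at 5.65 to 13.7 CPM in the others. It was thus low in the same mice as Hamp, by a far smaller factor, but it was picked by its r with Hamp over these mice. For Tfrc they were Xpot (0.78), Plscr2 (0.77), Mme (0.73), Nudt12 (0.72) and Olfm3 (0.70). For Slc40a1 they were Nfib (0.78), Gclm (0.76), Erlin1 (0.76), Asic1 (0.76) and Bmi1 (0.76). All of these r values share the libraries, and those of Hamp are read beside the 3 mice with low Hamp.

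The 4 pools gave 40 values for the 10 genes, of which 37 lay within the range of the 5 mice of their group. The ratio of pool to mean ran from 0.677 to 1.15. For Hamp the pools had 812, 549, 493 and 454 CPM in WT LFD, Adn-Lpin1-/- LFD, WT HFD and Adn-Lpin1-/- HFD, beside means of 784, 611, 520 and 568 CPM.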

How the data were processed

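Liver RNA was sequenced in 24 libraries. For GRCm38, the authors ran STAR 2.5.1a on the reads and featureCounts 1.4.6-p5 on the alignments with Ensembl 76 genes, and they deposited 3 values a gene, RPKM, CPM and the raw count. Tests used the deposited counts alone, and the deposited CPM and RPKM were checked for range. After 355 rRNA genes were left out, a gene was kept if it exceeded 1 CPM in 4 or more of the 20 libraries of single mice. The kept genes were tested with edgeR 4.0.16 (R 4.3.3): TMM scaling, group means in 1 fit, quasi-likelihood test, Benjamini-Hochberg adjustment over all tested genes, threshold 0.05. CPM in the text are on TMM-scaled totals, and log2 CPM carry a prior count of 2. Alternatives used DESeq2 1.42.0 and voom with quality weights (limma 3.58.1), other limits on low counts, 2-group fits, the replicate number as a block, removal of a GC trend, counts thinned to 36119123, and each mouse left out. The tests were first tested on simulated data. No general pairing of mice by replicate number was seen. Promoter windows came from RefSeq (GRCm38.p6) and transcripts from GENCODE mouse release 21.

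The 10 genes and the lists were chosen with earlier results of these data known. Named were all 10 genes, the 5 called pathway genes with the largest change per comparison, all tested BMP-SMAD target genes, 8 genes listed in the rule, and the genes most like Hamp, Tfrc and Slc40a1. The other called pathway genes were named after their values were seen. One result that this rule would name is not reported here. Nothing in the labels states that the mice were of separate litters, so p-values measure the spread between these mice.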

Additional observations from a re-analysis of the deposited data

Results flagged for a closer look

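Of 40 groups of 5 mice (10 genes in 4 groups), 5 held a mouse whose gap to its nearest neighbour was over 0.71 of the group's range on the log2 scale, where chance gives about 1 in 20. In WT HFD, mouse 4 was far below the others for Hamp (1.12 CPM) and for Hamp2 (2.33 CPM), and mouse 5 was far above them for Trf (1394 CPM). In Adn-Lpin1-/- LFD, mouse 5 was far above the others for Fth1 (1559 CPM), at 1.22 times the lowest mouse. In WT LFD, mouse 2 was far below the others for Bmp6 (0.90 CPM), at 40 counts. By the test in edgeR of the change of the genotype effect with diet, 0 of the 10 genes passed the threshold. An unadjusted p under 0.05 was found for 0 of the 10, and for 938 of all 13052 tested genes.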

How the results depend on the processing

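The number of iron handling genes called for genotype on the LFD (0) was 2 with DESeq2, 2 with voom with quality weights, 3 with voom and the pools, 1 with only the 2 groups compared, 1 with the GC trend removed, and 0 to 2 with single mice left out. On the HFD it was 3 with voom and the pools, 1 with the GC trend removed, and 0 to 1 with single mice left out, and for diet in WT it was 1 with voom and the pools. The shares of all tested genes called under the alternatives are not given here. The number of pathway genes called on the LFD (11) was 33 with voom and the pools, 7 with no limit on low counts, and 7 to 13 with single mice left out. On the HFD (20) it was 46 with voom and the pools. For diet in WT (2) it was 4 with DESeq2, 6 with voom, 17 with voom and the pools, 1 with no limit on low counts, with 2 groups, with the replicate block and with thinned counts, and 1 to 4 with single mice left out. For diet in Adn-Lpin1-/- mice (4) it was 26 with voom and the pools, 2 with 2 groups, and 1 to 5 with single mice left out. Of 37 calls of pathway genes, 18 held under every alternative. The cause of these changes was not tested, other than that the pools repeat the same mice.

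Log2 fold changes that turned direction were those of genes without a call. With the replicate block Hamp for genotype on the HFD was -0.29, and for diet in WT Tfrc was -0.0018 and Fth1 0.0026. For diet in WT, Tfrc was -0.036 with voom and -0.0090 with the pools, Tfr2 was -0.011 with voom, and Fth1 was 0.033 with voom, 0.016 with the pools, 0.016 with no limit on low counts, 0.0073 with the default limit of edgeR and 0.00075 with thinned counts. The difference of the genotype effect between diets for Fth1 was -0.0018 with no limit and -0.00068 with the default limit. With the GC trend removed, Ftl1 on the HFD was -0.081, Slc40a1 on the HFD 0.021, Bambi on the LFD 0.055 and Cp on the LFD 0.066. With voom and the pools, Bmp6 for diet in Adn-Lpin1-/- mice was 0.066 and Hjv on the LFD 0.014.

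With single mice left out, Hamp ranged from -0.37 to 1.13 for genotype on the HFD, from -0.60 to 0.21 for diet in Adn-Lpin1-/- mice and from -0.0090 to 1.49 for the difference between diets, and Hamp2 from -0.015 to 0.75 for that difference. Tfrc ranged from -0.28 to 0.32 for genotype on the HFD and from -0.21 to 0.16 for diet in WT. Tfr2 ranged from -0.018 to 0.061 for diet in WT and from -0.011 to 0.075 for the difference. Trf ranged from -0.15 to 0.065 and Hfe from -0.0082 to 0.11 for diet in Adn-Lpin1-/- mice. Fth1 ranged from -0.035 to 0.074 for diet in WT, from -0.020 to 0.070 for diet in Adn-Lpin1-/- mice and from -0.066 to 0.070 for the difference. Ftl1 ranged from -0.011 to 0.15 on the LFD, from -0.037 to 0.10 on the HFD and from -0.13 to 0.050 for the difference. Bmp6 ranged from -0.0076 to 0.22 for diet in WT and from -0.32 to 0.0090 for diet in Adn-Lpin1-/- mice. On the LFD, Bambi ranged from -0.090 to 0.084, Hjv from -0.084 to 0.026, Id1 from -0.52 to 0.0065 and Id3 from -0.25 to 0.042, and Hjv on the HFD from -0.14 to 0.0080. The r of Hamp ranged from -0.056 to 0.060 with Bmp6, and within groups from -0.087 to 0.21 with Bmp6, from 0.42 to 0.67 with Id1 and from -0.74 to -0.62 with Tfrc.

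Same-numbered mice did not in general deviate together (30 pairs, r from -0.42 to 0.28, median -0.011, 6 over 0.1). A median over pairs cannot exclude that some of the mice were paired. The replicate block gave 0 calls of iron handling genes in each comparison. Bmp6 was low, at 40 to 210 counts per mouse. Depth went with group in comparisons with WT LFD, so depth and group cannot be told apart there. With 5 mice a group, the spread of Hamp and Hamp2 limits what can be seen: a difference of Hamp under about 2 log2 units lies within the 95% intervals.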
